A study of Mus musculus with 9 samples.

Results

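Hearts of 1-week-old mice that express Klf9 from a knock-in in cardiomyocytes were compared with hearts of mice of the same age that carry the Cre driver alone. The members are the 6 heart libraries of that age, out of 18 RNA libraries in the study, and were taken by the genotype and age in their labels. The 3 Klf9KI hearts have the genotype alphaMHC-Cre with the Klf9KI transgene, and the 3 Wt-Cre hearts have alphaMHC-Cre without it. The driver, which both groups carry, takes its promoter from the alpha myosin heavy chain gene, so recombination is directed to cardiomyocytes, while the RNA came from whole hearts. The libraries of 4 and 8 weeks, 3 per genotype, and a list of chromatin regions bound by Klf9 in adult hearts are used beside them. Titles name n = 3 per group and give no litter, so the p-values measure the spread between these hearts.

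Klf9 belongs to the Krüppel-like transcription factors, whose zinc fingers contact DNA. It binds GC-rich boxes in promoters and is known mainly as a repressor. Its gene is induced by glucocorticoids and thyroid hormone. In the first weeks after birth the mouse heart turns from glucose towards fatty acids as fuel, and its cardiomyocytes leave the cell cycle and replace fetal by adult sarcomere proteins.

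The 6 libraries held 17225388 to 32855383 counts. The table listed 26234 genes, and 15825 with enough counts were tested. Klf9KI replicates 1 and 2 carried 710.1 and 607.3 CPM (counts scaled to the same library size) of Xist, which is made from an inactive X chromosome, and had no counts of the 4 Y-linked genes read. Klf9KI replicate 3 and the 3 Wt-Cre hearts stood at 0.295 to 1.70 CPM of Xist and carried the Y-linked genes, so sex and genotype cannot be fully told apart here. Cardiomyocyte markers summed to 24908 to 33416 CPM in Klf9KI and 29287 to 35333 CPM in Wt-Cre hearts, and none of the 10 was called. Summed levels of 12 atrial markers were 1416, 203 and 353 CPM in the Klf9KI hearts and 1593, 889 and 3202 CPM in the Wt-Cre hearts, with Myl7 at 2.80 CPM in Klf9KI replicate 2. None of the 12 was called, 4 were lower at an unadjusted p under 0.05, and their median log2 fold change was −1.19. Of all 15825 genes tested 2183 had such a p, in either direction. The part of atrial tissue in the results was tested only by a fit with the level of Myl7, given below. The other 10 marker lists also held no called gene.

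Klf9 itself was read first. It stood at 193, 222 and 183 CPM in Klf9KI against 23.2, 21.9 and 17.2 CPM in Wt-Cre hearts (log2 fold change 3.26, SE 0.13, adjusted p = 3.55e-09), a 9.58-fold difference with no overlap between the groups. This check of the labels held in all 18 alternative fits, in which the log2 fold change ran from 3.12 to 3.35. Reads of the inserted copy and of the gene on chromosome 19 (mm10, 23141226 to 23166911) fall into the same count.

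Of the 15825 genes tested, 266 were called at an adjusted p under 0.05 (1.68%), 103 higher (0.651%) and 163 lower (1.03%) in Klf9KI hearts. Most differences were small: 24 of the higher and 51 of the lower genes changed by at least 1 on the log2 scale. The hearts of the 2 groups did not overlap for any of the 266, against 19.9% of all genes tested. The median log2 fold change over all genes was −0.01. In whole hearts, fewer cells of a type and less RNA per cell cannot be told apart. The count was far lower where sex was taken into account, since 10 genes passed with sex as a covariate and 21 without the 2 libraries that carry Xist. With the level of Myl7 as a covariate 50 genes were called (0.316%), 44 of them among the 266. The median ratio of the log2 fold change in that fit to the one without the covariate was 0.965 over the 266. Of the 266 genes 261 had an unadjusted p under 0.05 in it. Myl7 itself was lower on average in Klf9KI hearts (log2 fold change −2.15, SE 1.88, adjusted p = 0.719). For calls lost in this fit, atrial tissue and the power lost to the added term cannot be told apart. Leaving out 1 heart at a time gave 78 to 238 genes, with 78 without Klf9KI replicate 2 and 91 without Wt-Cre replicate 3.

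**Figure D1:**
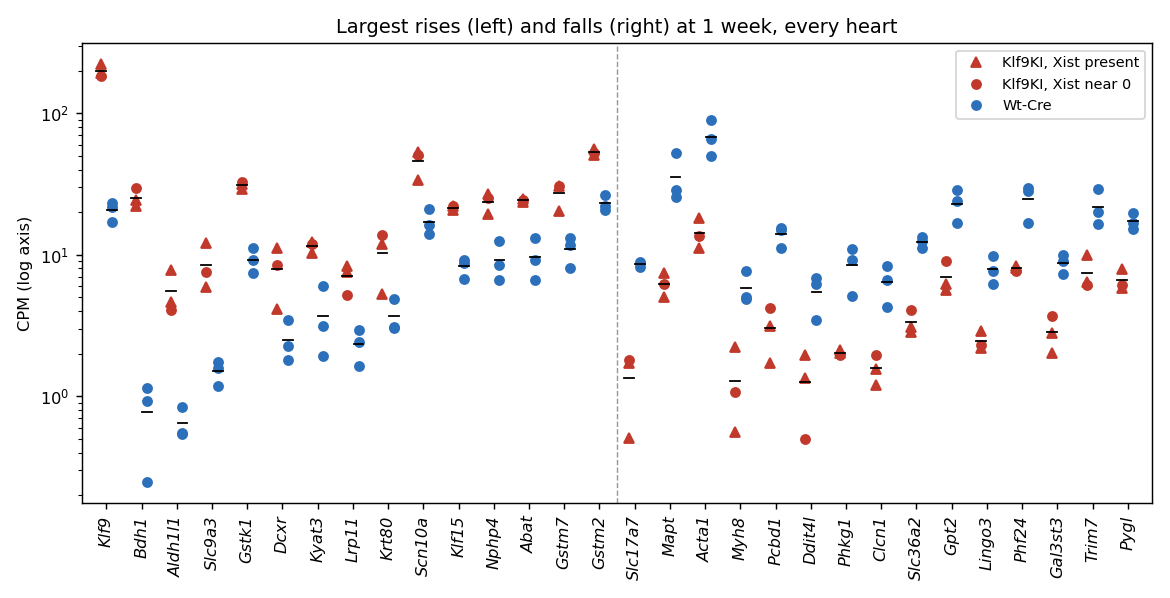
CPM (log axis) at 1 week in each of the 6 hearts, for the 15 protein-coding genes that rose most and the 15 that fell most; bars mark group means, and triangles mark the Klf9KI hearts that carry Xist. The genes were chosen for groups that do not overlap, and the plot shows how far apart the hearts of each gene lie.

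Klf15 rose and Klf13 fell beside Klf9 itself. Of 19 measured Klf and Sp factors, 2 rose and 1 fell, and the median log2 fold change was −0.23. Klf15, a regulator of amino acid and lipid use that glucocorticoids also induce, stood at 22, 20.6 and 22.1 CPM in Klf9KI against 9.26, 8.79 and 6.75 CPM in Wt-Cre hearts (log2 fold change 1.38, SE 0.19, adjusted p = 0.00191). The Klf9KI hearts were close together and above every Wt-Cre heart. Klf13, a close relative of Klf9, stood at 46.5, 38.2 and 48.9 CPM in Klf9KI against 65.0, 58.9 and 68.7 CPM in Wt-Cre hearts (log2 fold change −0.53, SE 0.12, adjusted p = 0.0435). Klf11 stood at −0.48 (SE 0.12, adjusted p = 0.0655) and did not pass.

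Bdh1 showed the largest rise among protein-coding genes with at least 5 CPM. It encodes the mitochondrial dehydrogenase that interconverts beta-hydroxybutyrate and acetoacetate. It stood at 24.2, 22.1 and 29.5 CPM in Klf9KI against 0.248, 0.933 and 1.15 CPM in Wt-Cre hearts (log2 fold change 5.03, SE 0.36, adjusted p = 4.53e-05). Every Klf9KI heart was many times above every Wt-Cre heart. Of 8 measured genes of ketone body enzymes and transporters Bdh1 alone was called, and the list median was 0.25. Oxct1, which activates ketone bodies for burning, had a log2 fold change of 0.75 (SE 0.20, adjusted p = 0.112).

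Enzymes of amino acid breakdown changed in both directions. On the branched-chain path 24 genes were measured, of which 5 rose (20.8%) and 1 fell (4.17%), with a list median of 0.10. The 5 were Ivd, which oxidises the isovaleryl group of leucine, Mccc1 and Mccc2, the subunits of the next carboxylase on that path, Pcca, a subunit of propionyl-CoA carboxylase, and Bckdhb, a subunit of the branched-chain keto acid dehydrogenase. Ivd stood at 208, 259.9 and 249.6 CPM in Klf9KI against 123, 121 and 113 CPM in Wt-Cre hearts (log2 fold change 1.01, SE 0.11, adjusted p = 0.00027). All Klf9KI hearts lay far above all Wt-Cre hearts. The log2 fold changes of Pcca, Bckdhb, Mccc1 and Mccc2 were 0.87, 0.84, 0.82 and 0.72. Of the 5 genes Ivd alone was called with the level of Myl7 in the fit. Acadsb, the dehydrogenase of the isoleucine path, fell by 0.72 on the log2 scale.

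Of 20 measured genes of other amino acid breakdown and transamination 2 rose and 1 fell, with a list median of 0.29. Gcdh, the glutaryl-CoA dehydrogenase of lysine and tryptophan breakdown, stood at 70.0, 79.6 and 74.9 CPM in Klf9KI against 30.1, 38.6 and 32.0 CPM in Wt-Cre hearts (log2 fold change 1.16, SE 0.12, adjusted p = 0.000265). Kyat3, a kynurenine transaminase, stood at 10.3, 12.3 and 11.8 CPM in Klf9KI against 3.12, 5.99 and 1.92 CPM in Wt-Cre hearts (log2 fold change 1.64, SE 0.35, adjusted p = 0.0317). The groups were apart for both, and the Wt-Cre hearts were more widely spread for Kyat3 than for Gcdh. Gpt2, the mitochondrial alanine transaminase, stood at 6.26, 5.66 and 9.0 CPM in Klf9KI against 23.8, 28.5 and 16.7 CPM in Wt-Cre hearts (log2 fold change −1.71, SE 0.24, adjusted p = 0.00245). Its highest Klf9KI heart was below its lowest Wt-Cre heart. Abat, which breaks down GABA, rose by 1.34 on the log2 scale. Adhfe1, a hydroxyacid-oxoacid transhydrogenase of mitochondria, rose by 0.71.

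Of 39 measured genes of glutathione and peroxide defence, 5 rose and none fell at the threshold (12.8% higher, against 0.651% of all genes), and the list median was 0.10. Gstk1, a glutathione transferase of mitochondria and peroxisomes, stood at 29.0, 31.8 and 32.4 CPM in Klf9KI against 7.38, 9.18 and 11.2 CPM in Wt-Cre hearts (log2 fold change 1.75, SE 0.18, adjusted p = 0.000265). Gstm2, a cytosolic transferase, stood at 55.9, 50.7 and 52.8 CPM in Klf9KI against 20.8, 22.2 and 26.4 CPM in Wt-Cre hearts (log2 fold change 1.2, SE 0.13, adjusted p = 0.00027). Each Klf9KI heart was above each Wt-Cre heart for both. Gstm7, a paralog of Gstm2 that also lies on chromosome 3, rose by 1.31. The selenium-dependent peroxidases Gpx1 and Gpx4 rose by 0.68 and 0.50, on the log2 scale as for the others. Of the 5 genes only Gstk1 and Gstm2 were called with the level of Myl7 in the fit. How reads divide between transferases of near-identical sequence is uncertain. Gpx4 shares near-identical sequence with the pseudogene Gpx4-ps2, which was also called (0.54), with the same uncertainty.

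Carbonyl-reducing and folate enzymes formed smaller groups. Dcxr, a xylulose and dicarbonyl reductase, rose by 1.66 on the log2 scale (0.97 with the level of Myl7 in the fit), and Aldh5a1, which oxidises succinic semialdehyde, by 0.69. These were 2 of 27 measured genes of carbonyl and aldehyde metabolism, with a list median of −0.04. Of 24 folate and serine one-carbon enzymes 2 rose, with a list median of 0.23. Aldh1l1, which oxidises 10-formyltetrahydrofolate, stood at 4.65, 7.84 and 4.04 CPM in Klf9KI against 0.545, 0.835 and 0.548 CPM in Wt-Cre hearts (log2 fold change 3.08, SE 0.45, adjusted p = 0.00278). The gene lies beside Klf15 on chromosome 6. Shmt1, the cytosolic serine hydroxymethyltransferase, rose by 0.72.

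Nuclear subunits of respiratory complex I shifted upward together, each by a small amount. Of 36 nuclear subunits of respiratory complex I 3 rose, namely Ndufb9, Ndufs8 and Ndufv3, at 0.47, 0.53 and 0.51 on the log2 scale. The list median was 0.28, 20 of the 36 were higher at an unadjusted p under 0.05 and none lower. All 36 log2 fold changes were positive, while 51.0% of those of all tested genes were negative. Such a shift was not particular to complex I. Positive values were also found for 35 of 38 cytosolic ribosomal proteins (median 0.13) and 17 of 19 interferon-response genes (median 0.26). The 36 genes summed to 9167 to 11381 CPM in Klf9KI and 8428 to 8982 CPM in Wt-Cre hearts. Uqcr11, a subunit of complex III, rose by 0.48, and Cisd3, a mitochondrial iron-sulfur protein, by 0.87. Mitochondrial counts made 13.7 to 14.1% of Klf9KI and 11.0 to 13.0% of Wt-Cre libraries. Of 13 mitochondrially encoded genes none was called (median 0.18). Their part in the complex I values was not tested.

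Few lipid genes were called. Lpl, the lipase that releases fatty acids from circulating triglyceride, stood at 2302, 2262 and 2249 CPM in Klf9KI against 1691, 1483 and 1306 CPM in Wt-Cre hearts (log2 fold change 0.60, SE 0.12, adjusted p = 0.0251) and had the largest difference in CPM of all called genes. Klf9KI hearts were close together and above every Wt-Cre heart. Acads, which oxidises short-chain acyl-CoA, stood at 60.7, 74.0 and 89.5 CPM in Klf9KI against 163, 153 and 148 CPM in Wt-Cre hearts (log2 fold change −1.05, SE 0.13, adjusted p = 0.000811). Lpl and Acads were the called members among 30 genes that take up or beta-oxidise fatty acids, whose median was −0.07. Ucp2, an uncoupling protein of the inner mitochondrial membrane, fell by 0.89 on the log2 scale, as 1 of 16 PPAR targets. Fdft1, the squalene synthase, and Me1, the cytosolic malic enzyme, fell by 0.77 and 0.87, with Fdft1 at −0.46 when sex was a covariate. They were the called members among 30 genes of cholesterol and fatty acid synthesis. Agpat2, an acyltransferase of triglyceride synthesis, fell by 1.0. None of 33 peroxisome genes was called, 3 being higher and 2 lower at an unadjusted p under 0.05.

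Of 21 measured genes of glycogen synthesis and breakdown 4 fell and none rose at the threshold (19.0% lower, against 1.03% of all genes), with a list median of −0.21, and 9 were lower at an unadjusted p under 0.05. Pygl, the liver-type glycogen phosphorylase, stood at 7.87, 5.82 and 6.08 CPM in Klf9KI against 15.2, 16.9 and 19.8 CPM in Wt-Cre hearts (log2 fold change −1.39, SE 0.21, adjusted p = 0.00387). Phkg1, the catalytic subunit of muscle phosphorylase kinase, stood at 2.13, 2.02 and 1.94 CPM in Klf9KI against 9.26, 5.11 and 10.9 CPM in Wt-Cre hearts (log2 fold change −2.05, SE 0.34, adjusted p = 0.00677). For Phkg1 the Klf9KI hearts were close together and below the more widely spread Wt-Cre hearts. Stbd1, which tethers glycogen to membranes, fell by 0.85 on the log2 scale, and Pgm2, a phosphoglucomutase, by 0.50. Of these 4 glycogen genes Stbd1 alone was called with the level of Myl7 in the fit. Of 30 genes of glucose uptake, glycolysis and pyruvate 2 rose and 1 fell. The glucose transporter Slc2a1 stood at 28.6, 20.6 and 19.9 CPM in Klf9KI against 12.5, 10.5 and 11.5 CPM in Wt-Cre hearts (log2 fold change 1.00, SE 0.19, adjusted p = 0.0147). Mpc1, a subunit of the mitochondrial pyruvate carrier, rose by 0.68, and so did its pseudogene Mpc1-ps (0.65), with the same uncertainty of shared reads. Pdk1, which inhibits pyruvate dehydrogenase, fell by 0.61.

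Some fetal and skeletal forms of sarcomere proteins fell, and no adult form was called. The list of 17 measured genes also holds markers of the fetal or stressed heart that are no such isoforms, namely Nppa, Nppb, Ankrd1, Xirp2 and Myot. Of the 17 genes 4 fell and none rose at the threshold (23.5% lower, against 1.03% of all genes), with a list median of −0.89. Acta1, the skeletal actin of the immature heart, stood at 18.1, 11.1 and 13.7 CPM in Klf9KI against 89.2, 49.7 and 65.9 CPM in Wt-Cre hearts (log2 fold change −2.26, SE 0.25, adjusted p = 0.00442). The perinatal myosin Myh8 stood at 2.24, 0.560 and 1.07 CPM in Klf9KI against 5.0, 4.86 and 7.62 CPM in Wt-Cre hearts (log2 fold change −2.18, SE 0.47, adjusted p = 0.0318). For both genes every Klf9KI heart was below every Wt-Cre heart, and Myh8 was low in all 6. Tnnt1, the slow skeletal troponin T, fell by 1.03 on the log2 scale and Tpm2, beta-tropomyosin, by 0.89. Myh7, the fetal ventricular myosin of the mouse, was at 0.61 (SE 0.27, adjusted p = 0.397) and did not pass. Of 20 adult sarcomere genes none was called, and their median was −0.00. Beside these values stand the atrial markers, whose median was −1.19. Skeletal muscle markers, of which 4 of 11 were measured and none called, summed to 342 to 583 CPM in Klf9KI and 518 to 601 CPM in Wt-Cre hearts. Nearly all of that sum was Ckm, also counted as a cardiomyocyte marker, at 340 to 579 CPM in Klf9KI and 512 to 593 CPM in Wt-Cre hearts. Mylpf, Tnnt3 and Tnni2 stood at 0.0491 to 3.61 CPM, so the list median of −0.70 rests on genes near the floor. The part of skeletal muscle was not tested. With the level of Myl7 in the fit, Acta1 was at −1.83 (adjusted p = 0.0113), Tnnt1 at −1.36 (adjusted p = 0.0206), Tpm2 at −0.60 (adjusted p = 0.225) and Myh8 at −1.28 (adjusted p = 0.41).

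**Figure D2:**
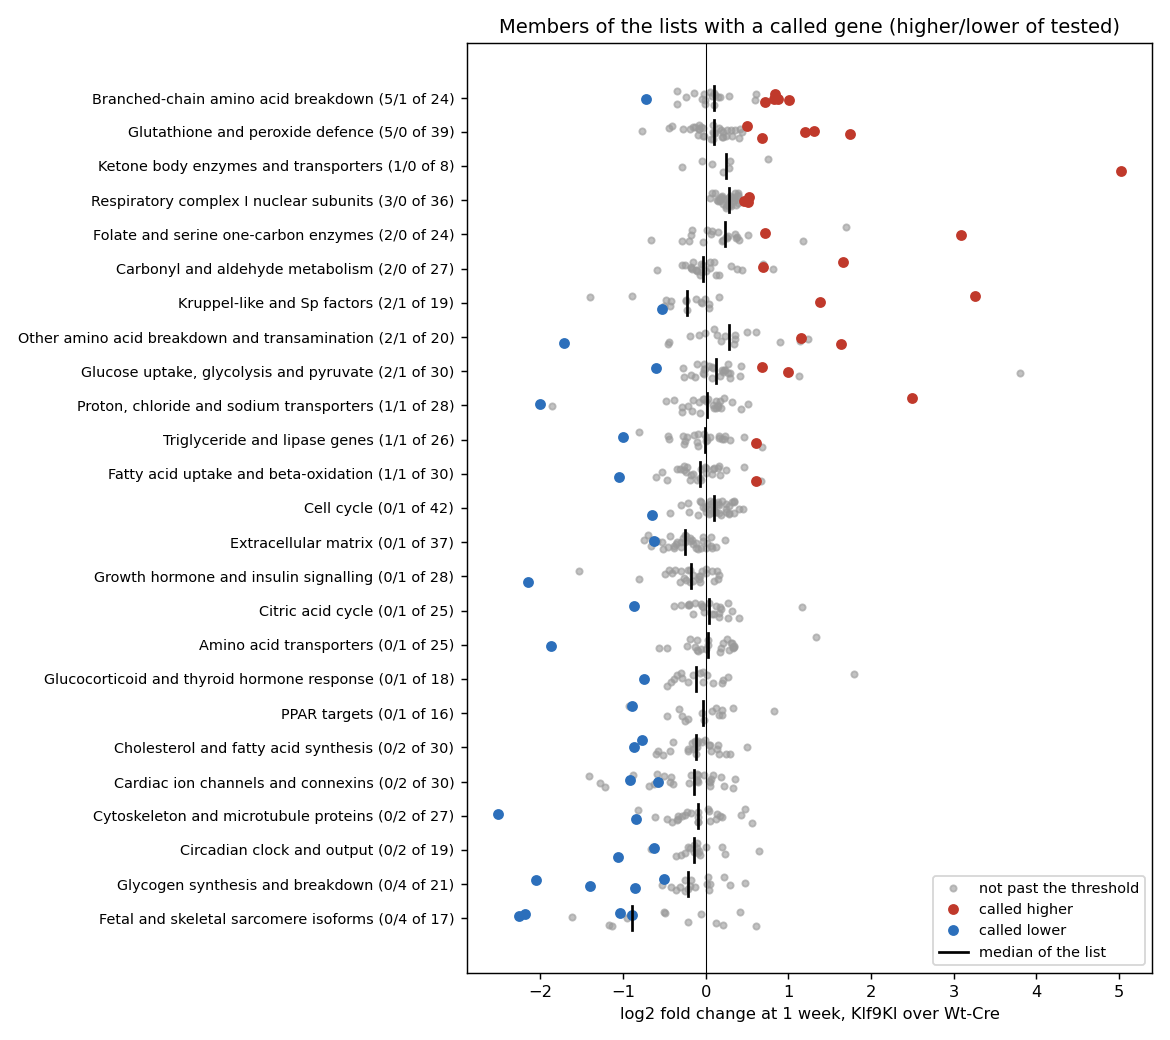
Log2 fold change at 1 week (Klf9KI over Wt-Cre) of each measured member of the gene lists that held a called gene; red and blue points passed the test, grey points did not, and black bars are list medians. Branched-chain (5 higher, 1 lower of 24) and glutathione genes (5 higher of 39) lie at the top, and glycogen (4 lower of 21) and fetal sarcomere genes (4 lower of 17) at the bottom.

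Other genes called with large changes encode transporters, channels and signalling proteins. Slc36a2, a proton-coupled carrier of small amino acids, stood at 3.10, 2.86 and 4.04 CPM in Klf9KI against 11.1, 12.6 and 13.3 CPM in Wt-Cre hearts (log2 fold change −1.87, SE 0.25, adjusted p = 0.00187), the called member among 25 amino acid transporters. Slc17a7, a vesicular glutamate transporter, stood at 1.72, 0.504 and 1.82 CPM in Klf9KI against 8.71, 8.15 and 8.94 CPM in Wt-Cre hearts (log2 fold change −2.64, SE 0.41, adjusted p = 0.00401). Mapt, the microtubule-binding protein tau, stood at 7.47, 5.04 and 6.18 CPM in Klf9KI against 52.5, 25.4 and 28.5 CPM in Wt-Cre hearts (log2 fold change −2.51, SE 0.29, adjusted p = 0.00273). Mapt and Tubb2b, a beta-tubulin (−0.84), were the called members among 27 cytoskeleton genes. For the first 3 genes the highest Klf9KI heart lay well below the lowest Wt-Cre heart. The skeletal chloride channel Clcn1 fell by 2.01 on the log2 scale and the sodium-proton exchanger Slc9a3 rose by 2.50, the called members among 28 proton, chloride and sodium transporters. Of 30 cardiac ion channels and connexins 2 fell, the T-type calcium channel Cacna1h (−0.92) and the potassium channel Kcnj5 (−0.58), and 8 were lower at an unadjusted p under 0.05. Of these 8, Kcnj3 and Gja5 are also among the atrial markers, whose median was −1.19. With the level of Myl7 in the fit Kcnj5 was at −0.56 (adjusted p = 0.168) and Cacna1h at −0.97 (adjusted p = 0.0476). Scn10a, a sodium channel outside that list, stood at 33.9, 53.5 and 51.1 CPM in Klf9KI against 14.1, 21.0 and 16.1 CPM in Wt-Cre hearts (log2 fold change 1.44, SE 0.19, adjusted p = 0.00278). Adcy5, the main adenylyl cyclase of the heart with Adcy6, fell by 0.55. Of 25 calcium-handling genes none was called, 3 being higher and 2 lower at an unadjusted p under 0.05.

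Among regulators, Thra, the thyroid hormone receptor alpha, stood at 101, 108 and 105 CPM in Klf9KI against 191, 153 and 180.3 CPM in Wt-Cre hearts (log2 fold change −0.74, SE 0.11, adjusted p = 0.00258). It was the called member among 18 genes of glucocorticoid and thyroid hormone response, whose median was −0.11. Of 19 clock genes 2 fell, Dbp at −1.07 and Per3 at −0.63, both outputs of the circadian clock, while Per2 stood at 0.64 (adjusted p = 0.0503). With sex as a covariate Dbp was at −0.65 (adjusted p = 0.516). Ccnd2, the cyclin that drives entry into the cell cycle, stood at 133, 118 and 111 CPM in Klf9KI against 204, 207 and 158 CPM in Wt-Cre hearts (log2 fold change −0.65, SE 0.12, adjusted p = 0.0122). The other 41 measured cell cycle genes were not called (list median 0.10). Ddit4l, an inhibitor of mTOR signalling, fell by 2.15 as 1 of 28 genes of growth hormone and insulin signalling. Its size moved to −3.44 with sex as a covariate (adjusted p = 0.133). Col15a1 was the called member among 37 matrix genes and fell by 0.62. No gene was called among 20 ATF4 targets, 19 interferon-response genes, 23 PGC-1 and mitochondrial regulators or 38 cytosolic ribosomal proteins. At an unadjusted p under 0.05 these held 1, 2, 1 and 3 higher and 3, 0, 2 and 0 lower genes. Their medians were −0.07, 0.26, 0.01 and 0.13. The interferon list had 17 of 19 positive values and summed to 195 to 238 CPM in Klf9KI and 173 to 194 CPM in Wt-Cre hearts. Irgm1, H2-D1 and H2-T22, which were called higher and are given at the end, are not in that list.

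Which of the changed genes carry a Klf9 region was read from chromatin of adult hearts. The deposited list holds 5238 regions merged over 1 library of sham-operated and 1 of pressure-overloaded (TAC) hearts at 12 to 14 weeks of age, so it does not show binding at 1 week. Of the genes called lower 100 of 163 were listed for a region (61.3%), against 5746 of 15559 genes not called (36.9%) and 28 of 103 genes called higher (27.2%). Counting only regions within 1 kb of the gene start, the shares were 46.6%, 26.7% and 19.4%. Read the other way, 1.70% of the 5874 genes with a region were called lower and 0.477% higher, against 0.633% and 0.754% of the 9951 genes without. Genes are not independent samples and the shares were not tested.

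Expressed genes have regions more often, so the shares were also read within 3 equal bins of mean CPM. In the middle bin 38 of 61 lower genes (62.3%), 42.1% of genes not called and 3 of 30 higher genes (10%) had a region. In the high bin the shares were 67.8%, 51.9% and 34.4%. In the low bin 3 of 15 lower and 3 of 9 higher genes had one, against 17.2% of genes not called, so there the share was highest among the higher genes. Without Klf9KI replicate 1 the share among genes called lower was 48.5%, without Klf9KI replicate 3 that among genes called higher was 16.1%, and the 3 genes called lower in the fit of all 18 libraries with sex had none. Of the lower genes with a region 83.0% had one at a CpG island, against 87.2% of the genes not called. The authors' median sham signal of the nearest region was 28.8 for lower genes, 28.2 for higher genes and 25.1 for genes not called.

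**Figure D3:**
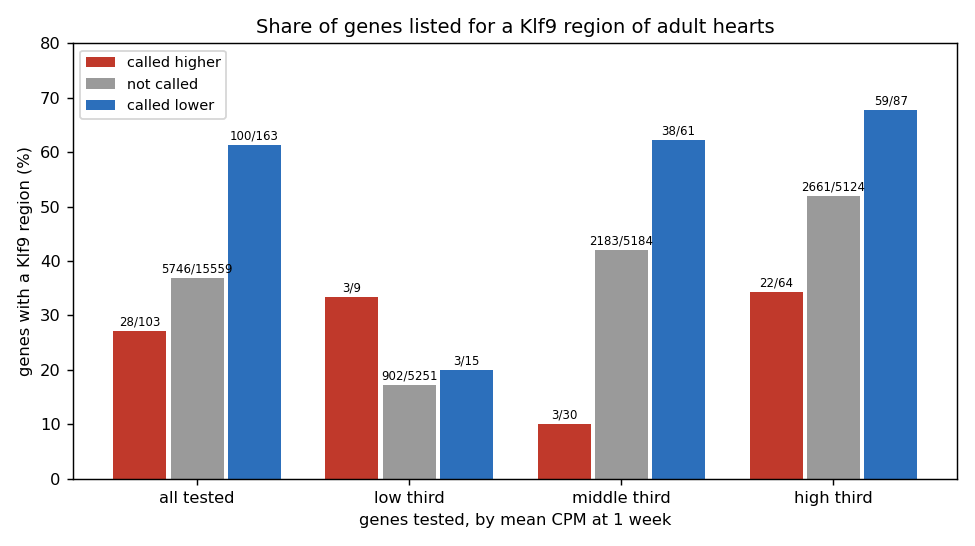
Percent of genes listed for a Klf9 region of adult hearts, for genes called higher (red), not called (grey) and called lower (blue) at 1 week, over all tested genes and within 3 equal bins of mean CPM; fractions above the bars give genes with a region of all genes. Lower genes exceed genes not called overall (61.3 against 36.9%) and in the middle and high bins.

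The lower genes with a region and the smallest adjusted p were Sccpdh, Adssl1, Sox12, Cand2, Sgsm2, Phf24, Ttc3, Acads, Ppp1r14b and Slc36a2. Sccpdh encodes a saccharopine dehydrogenase-like protein, and Adssl1 the muscle enzyme of the first step from IMP towards AMP. Sccpdh stood at 40.7, 45.3 and 44.2 CPM in Klf9KI against 94.4, 86.0 and 82.5 CPM in Wt-Cre hearts (log2 fold change −1.01, SE 0.11, adjusted p = 0.000265). Adssl1 stood at 65.3, 70.4 and 77.2 CPM in Klf9KI against 146, 156 and 133 CPM in Wt-Cre hearts (log2 fold change −1.03, SE 0.11, adjusted p = 0.000265). Hearts of a genotype lay close together for both genes, and the groups were far apart. The higher genes with a region and the smallest adjusted p were Klf9 itself, Aldh1l1, Gpx1, Pcyt2, Slc2a1, Ostm1, Lpl, Ndufv3, C030006K11Rik and Tspan4. The region of Aldh1l1 lies 54063 bases from its start, inside the gene. Thra was listed for a region. Bdh1, Ivd, Gcdh, Gstk1, Gstm2, Klf15, Acta1 and Myh8 were not.

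Start-site sequences are shown for Klf9, for a called higher gene (Slc2a1) and for 3 called lower genes, each with a region within 1 kb of its start. They are examples out of 20 higher and 76 lower genes with such a region, and their motif counts do not stand for the rest. They run from 250 bases before to 50 after the start, 5′ to 3′ on the strand of the gene, from RefSeq on GRCm38.p6, the assembly of mm10. Capitals mark GGCGTG or its reverse complement CACGCC, the core of sites bound by Krüppel-like factors.
Klf9, chr19:23140976-23141275, plus strand: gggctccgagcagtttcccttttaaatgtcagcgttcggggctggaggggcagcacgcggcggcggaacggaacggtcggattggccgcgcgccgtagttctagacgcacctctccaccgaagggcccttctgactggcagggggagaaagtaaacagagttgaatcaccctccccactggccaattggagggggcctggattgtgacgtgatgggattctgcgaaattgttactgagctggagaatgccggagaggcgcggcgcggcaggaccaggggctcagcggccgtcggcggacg
Slc2a1, chr4:119108495-119108794, plus strand: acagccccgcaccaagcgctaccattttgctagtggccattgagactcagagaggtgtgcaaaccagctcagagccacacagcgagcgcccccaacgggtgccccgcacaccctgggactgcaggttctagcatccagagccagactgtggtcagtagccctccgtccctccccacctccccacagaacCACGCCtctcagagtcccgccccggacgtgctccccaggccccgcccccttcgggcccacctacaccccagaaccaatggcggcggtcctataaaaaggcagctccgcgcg
Acads, chr5:115119297-115119596, minus strand: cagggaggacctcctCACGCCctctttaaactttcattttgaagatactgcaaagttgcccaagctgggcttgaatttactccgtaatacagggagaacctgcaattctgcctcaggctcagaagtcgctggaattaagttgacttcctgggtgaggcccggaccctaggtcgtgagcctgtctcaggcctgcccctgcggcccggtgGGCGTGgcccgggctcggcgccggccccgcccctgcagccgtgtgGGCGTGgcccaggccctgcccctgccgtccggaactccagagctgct
Sccpdh, chr1:179667981-179668280, plus strand: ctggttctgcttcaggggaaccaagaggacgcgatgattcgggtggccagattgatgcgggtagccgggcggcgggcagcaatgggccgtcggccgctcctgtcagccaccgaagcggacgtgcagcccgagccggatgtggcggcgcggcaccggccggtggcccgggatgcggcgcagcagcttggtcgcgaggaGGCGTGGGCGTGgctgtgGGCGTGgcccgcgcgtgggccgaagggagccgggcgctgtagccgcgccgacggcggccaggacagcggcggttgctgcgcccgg
Ucp2, chr7:100493108-100493407, plus strand: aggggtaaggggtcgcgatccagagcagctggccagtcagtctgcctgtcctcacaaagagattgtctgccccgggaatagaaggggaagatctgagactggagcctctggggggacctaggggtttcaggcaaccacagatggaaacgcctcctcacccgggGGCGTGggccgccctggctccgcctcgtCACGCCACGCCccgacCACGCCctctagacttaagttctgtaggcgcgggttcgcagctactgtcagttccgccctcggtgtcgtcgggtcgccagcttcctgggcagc
These letters occur 0 times in the Klf9 window, 1 time in Slc2a1, 3 times in Acads and Sccpdh and 4 times in Ucp2, where 2 matches overlap by 1 base. The windows of Acads and Sccpdh lie wholly inside the region (mm10 chromosome 5, 115118980 to 115119682, and chromosome 1, 179667951 to 179668531). Those of Ucp2, Slc2a1 and Klf9 lie inside it only in part. The region of Acads had an authors' signal of 73.5 in sham and 66.9 in TAC hearts, and that of Sccpdh 59.7 and 64.4. Signals were lower for the regions of Ucp2 (25.4 in sham and 19.8 in TAC), Slc2a1 (28.6 and 25.9) and Klf9 (32.1 and 19.8).

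The motif was then counted over all promoters. On either strand it was found in 20.6% of 17233 promoters matched by symbol and in 25.9% of the 11252 matched among tested genes. Among called genes it was found in 37 of 119 lower (31.1%) and 24 of 81 higher promoters (29.6%). Where a region lay within 1 kb of the start it was found in 26 of 59 promoters of lower genes (44.1%) and in 40.9% of 3390 promoters of genes not called. The GC box GGGCGG or CCGCCC, which can overlap it, was found in 62.9% of tested, 74.8% of lower and 64.2% of higher promoters. The shorter CACCC box, CACCC or GGGTG, another site of Krüppel-like factors, was found in 63.1% of tested, 75.6% of lower and 69.1% of higher promoters. Where a region lay within 1 kb of the start it was found in 49 of 59 promoters of lower genes (83.1%) and in 65.5% of those of genes not called. The unrelated E-box CACGTG was found in 10% of tested, 7.56% of lower and 12.3% of higher promoters. Where a region lay near the start, the E-box was found in 3 of 59 promoters of lower genes (5.08%) and in 11.8% of those of genes not called. In these same sets the GC box was found in 49 of 59 (83.1%) and in 77.3%. The shares of motifs were not tested.

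At the later ages, in other mice with their own controls, Klf9 itself was less raised. At 4 weeks it stood at 143, 179 and 167 CPM in the hearts labelled Klf9KI against 113, 142 and 123 CPM in Wt-Cre hearts and was not called (log2 fold change 0.37, SE 0.14, adjusted p = 0.111). At 8 weeks it stood at 108, 122 and 111 against 43.8, 65.6 and 40.6 CPM and was called higher (log2 fold change 1.19, SE 0.21, adjusted p = 0.00594). The differences from 1 week were −2.89 and −2.11 (adjusted p = 2.01e-06 and 2.85e-05), and the label at 4 weeks is not borne out by a called difference in Klf9. Every Klf9KI heart at 4 weeks still lay above every Wt-Cre heart, the closest 2 at 143 and 142 CPM. The mean of Klf9 at 1 week was 20.8 CPM in Wt-Cre and 199 CPM in Klf9KI hearts, so the Wt-Cre level was higher at 4 weeks. CPM were scaled within each age. All 12 hearts of the later ages were male by their Y-linked genes, so the sex of the hearts also follows age.

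Genes lowered at 1 week were often lower at the later ages. Of the 163 lower genes 104 were called lower at 4 weeks (63.8%, against 6.75% of all genes tested at that age), which is 10.6% of the 980 genes lower at 4 weeks. At 8 weeks 56 were called lower (34.4%, against 5.52%), which is 7.01% of 799. Of the 103 higher genes 39 were called higher at 4 weeks (37.9%, against 6.65%) and 18 at 8 weeks (17.5%, against 4.96%), which is 4.04% of 965 and 2.50% of 719. The median log2 fold change of the lower genes was −0.74 at 1 week, −0.80 at 4 and −0.55 at 8 weeks. That of the higher genes was 0.68, 0.39 and −0.16, with 83 of 102 positive at 4 weeks and 44 of 102 at 8 weeks. The genes were chosen by their 1-week values, so smaller medians at other ages are favoured by the choice. Over all genes the median was 0.00 at 4 and 0.04 at 8 weeks. Age and any batch that follows it cannot be told apart.

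Genes called in the same direction at all 3 ages numbered 50 of the 163 lower and 16 of the 103 higher. The share of all genes called the same way at both later ages is not given here. The lower ones included Acads, Acadsb, Gpt2, Pgm2, Phkg1, Tnnt1, Clcn1, Cacna1h, Kcnj5, Slc36a2 and Slc17a7, and 29 of the 50 had a region. The higher ones included Bdh1, Aldh1l1, Slc9a3, Slc2a1, Abat and the class I histocompatibility gene H2-D1, and 2 of the 16, Aldh1l1 and Slc2a1, had a region. Of all genes called at 1 week, 61.3% of the lower and 27.2% of the higher ones had a region, against 36.9% of genes not called. Bdh1 had log2 fold changes of 5.03, 5.04 and 1.44 at 1, 4 and 8 weeks, Phkg1 of −2.05, −3.40 and −3.66, and Slc36a2 of −1.87, −4.53 and −5.99.

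A smaller set was called in opposite directions at 1 and 8 weeks. It held 9 of the 103 genes higher at 1 week, Gstk1, Klf15, Kyat3, Mccc2, Adhfe1, Pxmp2, Ndufs8, Isoc2a and Mpc1-ps. It also held 3 of the 163 lower ones, Acta1, Ccnd2 and Col15a1. Of all genes tested at 8 weeks, 5.52% were called lower and 4.96% higher. The differences between ages, given for 3 of them, come from the fit of 18 libraries, in which 9.45% of genes differed, and restate the choice of these genes. Gstk1 went from 1.75 at 1 week to −1.27 at 8 weeks (difference −3.06, SE 0.25, adjusted p = 5.81e-07). Klf15 went from 1.38 to −0.93 (difference −2.35, SE 0.28, adjusted p = 3.97e-05). Acta1 went from −2.26 to 1.79 (difference 4.01, SE 0.93, adjusted p = 0.0157). At 4 weeks 3 of the higher genes (Lpl, Adhfe1 and Egln3) and 2 of the lower genes (Tenm4 and Gm19410) were called in the opposite direction. Of all genes tested at 4 weeks, 6.75% were called lower and 6.65% higher. Among genes that entered that fit, 46 of 102 higher and 36 of 163 lower ones differed in effect between 8 weeks and 1 week. These genes were chosen by the same 1-week hearts that enter the difference, so such counts are favoured by the choice. Over all genes that fit called 1574, against 790 with sex as a covariate, 942 without Klf9KI replicate 2 and 974 without Wt-Cre replicate 3.

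**Figure D4:**
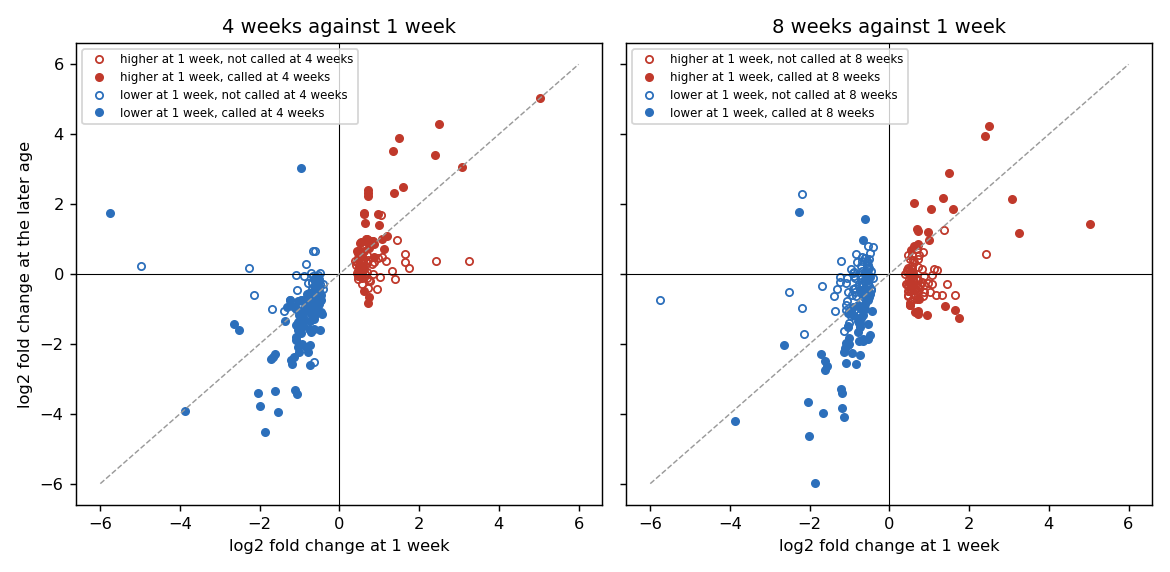
Log2 fold change at 4 weeks (left) and 8 weeks (right) against that at 1 week for the genes called at 1 week; filled points were called at the later age, and the dashed line marks equal values. Lower genes (blue) lie mostly below 0 at both later ages, with 148 of 157 at 4 and 127 of 159 at 8 weeks, while 44 of 102 higher genes (red) lie above 0 at 8 weeks.

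Last, the genes were read with the sex of the hearts in view. In the fit with a term for sex 10 genes passed (0.0632% of 15825), and without the 2 libraries that carry Xist 21 (0.118% of 17769). In the fit of all 18 libraries with sex 14 were called (0.084%). In these fits the genotype effect at 1 week rests on 1 Klf9KI heart, so the loss of replicates and the effect of sex cannot be told apart. Since the groups overlapped for none of the 266 genes, the sign of that heart against the Wt-Cre hearts was fixed by their choice and is no check against sex. Klf9, Bdh1, Gstk1, Gstm2, Gcdh, Ivd and Tmem50b, a membrane protein of the endoplasmic reticulum, were called in all 3 fits. Tmem50b stood at 152, 178 and 154 CPM in Klf9KI against 73.0, 86.6 and 69.7 CPM in Wt-Cre hearts (log2 fold change 1.08, SE 0.11, adjusted p = 0.000265). A further 15 genes were called in 1 or 2 of the 3 fits, namely Klf15, Aldh1l1, Gstm7, Mccc1, Mccc2, Pcca, Cisd3, Scn10a, Tesc, Mapt, Sgsm2, Sccpdh, Adssl1, Smco1 and Sort1. Genes of the X chromosome made 3.01% of the called and 3.29% of the tested genes. This share is no check against sex, since with 1 male Klf9KI heart Xist itself was not called (log2 fold change 9.17, adjusted p = 0.311). None of the 7 tested genes of the Y chromosome was called either.

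**Figure D5:**
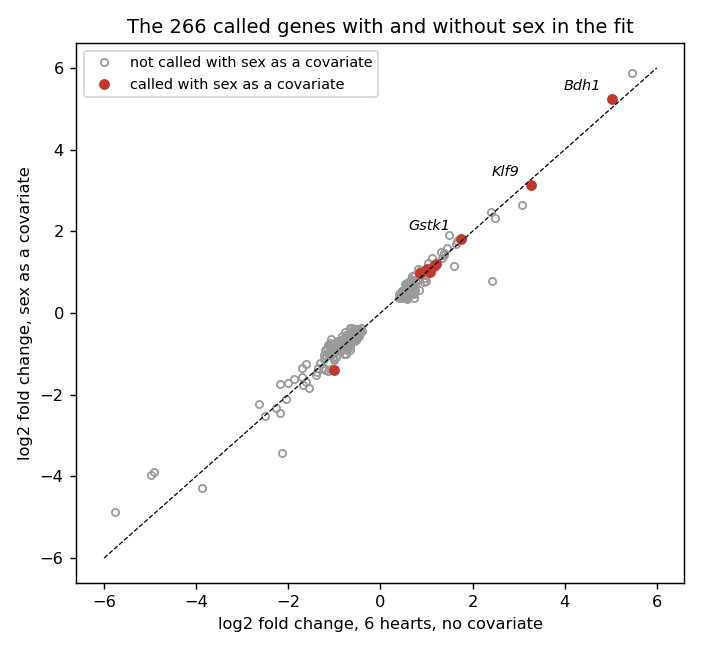
Log2 fold change of the 266 called genes with sex as a covariate (vertical) against the 6-heart fit without it (horizontal); red points were called with the covariate and the dashed line marks equal values. Of the 266 genes 9, among them Bdh1, Klf9 and Gstk1, pass with the covariate, and since the vertical values rest on 1 Klf9KI heart of genes without overlap, their sign was fixed by the choice of genes.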

How the data were processed

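RNA of whole mouse hearts was sequenced by the authors, and Klf9-bound chromatin was read in 1 sham and 1 TAC library. The authors deposited raw counts per gene and heart in 1 table per age, per the file headers, made with fastp, HISAT2 2.0.5, StringTie 1.3.3b and featureCounts 1.5.0-p3 on mm10, per the submitters' processing notes. The labels' protocols name stranded and unstranded library types without saying which was used, so counts of overlapping antisense genes are uncertain. The deposited region table gives, for each region, its mean signal in either library and whether it was present there, made with BWA and MACS2 2.1.0, per the same notes. Scaling between its libraries is not given in the sources used here.

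Counts went into edgeR 4.0.16 (R 4.3.3), whose quasi-likelihood test was run with a robust prior, filterByExpr, TMM and Benjamini-Hochberg adjustment over all tested genes at 0.05. Ages were compared in 1 fit of 18 libraries over 16660 genes. CPM used effective library sizes, and SE comes from the fit. DESeq2 1.42.0 was an alternative. On simulated data with 200 changed genes (15385 genes) the 1-week test recovered 17.9, 56.7 and 78.8% of 1.5-, 2- and 4-fold changes, with 14 false of 116 calls. Of 6868 region symbols 6521 matched a gene. Intervals of low counts cover counting error only.

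Members and the 45 gene lists were chosen with earlier results of these data known. Named genes were Klf9, the 15 largest rises and falls of protein-coding genes with at least 5 CPM and no overlap, the 10 largest CPM differences each way, genes called in a fit with sex or without the Xist libraries, up to 4 called members per list by adjusted p, the 10 genes with a region and the smallest adjusted p each way, and the 5 largest differences of effect each way between 4 weeks and 1 week. Other genes were named after their values were seen.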

Additional observations from a re-analysis of the deposited data

Results flagged for a closer look

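The genotype effect differed between 4 weeks and 1 week for 192 of 16660 genes (1.15%) in the edgeR fit of 18 libraries, and 10 genes called at 1 week are given here because their difference of log2 fold changes was the largest each way. The count was 95 with sex as a covariate and 115 without Wt-Cre replicate 3, and all hearts at 4 weeks were male by their Y-linked genes while 2 of 3 Klf9KI hearts at 1 week carried Xist. Klf9 stood at 3.26 at 1 week and 0.37 at 4 weeks (difference −2.89, SE 0.24, adjusted p = 2.01e-06), and its value at 4 weeks did not pass the test (adjusted p = 0.111). The amino acid carrier Slc36a2 stood at −1.87 at 1 week and −4.53 at 4 weeks (difference −2.66, SE 0.37, adjusted p = 0.000504), and the connexin Gja3 at −0.74 at 1 week and −2.60 at 4 weeks (difference −1.86, SE 0.32, adjusted p = 0.00295). Gstk1 stood at 1.75 at 1 week and 0.18 at 4 weeks (difference −1.57, SE 0.25, adjusted p = 0.00161) and Adhfe1 at 0.71 at 1 week and −0.84 at 4 weeks (difference −1.56, SE 0.20, adjusted p = 0.000203). Differences in the other direction were found for the keratin Krt80, at 1.49 at 1 week and 3.88 at 4 weeks (difference 2.39, SE 0.49, adjusted p = 0.0128), and for Abat, at 1.34 at 1 week and 3.53 at 4 weeks (difference 2.19, SE 0.43, adjusted p = 0.0119). Shmt1 stood at 0.72 at 1 week and 2.39 at 4 weeks (difference 1.67, SE 0.27, adjusted p = 0.00171). Tenm4, a teneurin of the cell surface, stood at −0.97 at 1 week and 3.02 at 4 weeks (difference 4.00, SE 0.82, adjusted p = 0.0132). The unannotated gene Gm19410 had 1 count over the Klf9KI hearts and 64 over the Wt-Cre hearts at 1 week, a ratio of 0.0137 (95% counting interval 0.000341 to 0.0790), so its fitted difference of 7.31 (adjusted p = 0.00161) depends on the prior count.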

How the results depend on the processing

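Klf9 kept its call in all 18 alternative fits. The count of 266 genes became 522 with DESeq2, 672 without a filter, 166 without the robust prior (added after seeing the data), 10 with sex as a covariate, 21 without the 2 libraries that carry Xist, 14 with all 18 libraries and sex, 47 with all 18 libraries, 50 with the level of Myl7 and 75 at a log2 fold change of at least 1. Leaving out 1 heart gave 78 to 238 genes, the Klf9KI group giving 78 without its replicate 2 and 112 without its replicate 3, and the Wt-Cre group 140 without its replicate 1 and 91 without its replicate 3. The replicate block gave 189 (the numbers did not pair the hearts, with correlations of deviations of 0.08, 0.10 and −0.12). The share of lower genes with a region (61.3%) was 46.6% within 1 kb of the start, 20% in the low bin, 0% of the 3 genes called with all 18 libraries and sex, and 48.5 to 64.2% with 1 heart left out. That of higher genes (27.2%) was 10% in the middle bin, 18.2% with all 18 libraries and sex, and 16.1 to 28.3% with 1 heart left out. That of genes not called (36.9%) was 34.0% for sham regions, 26.7% within 1 kb, 17.2, 42.1 and 51.9% in the low, middle and high bins and 39.7% with the 1 CPM filter. The 192 genes that differed between 4 weeks and 1 week became 95 with sex, 399 with DESeq2 and 115 to 273 with 1 heart left out, 115 without Wt-Cre replicate 3. The 1574 genes for 8 weeks became 790 with sex and 942 to 1508 with 1 heart left out, with 974 when Wt-Cre replicate 3 was left out and 942 when Klf9KI replicate 2 was. The cause of these changes was not tested. Of 1600 refits of the 89 named genes other than Klf9, 1036 kept the call and 564 lost it.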

Other observations

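The genes and families given here were chosen after their values were seen. Of 20 measured selenoprotein genes, which carry the amino acid selenocysteine, 4 rose and 1 fell (20% higher, against 0.651% of all genes), with a family median log2 fold change of 0.11. The 4 were Gpx1 and Gpx4, already counted among the glutathione genes, the methionine sulfoxide reductase Msrb1 and the endoplasmic reticulum protein Selenos, and the thioredoxin reductase Txnrd3 fell. Msrb1 stood at 99.2, 138 and 111 CPM in Klf9KI against 70.3, 75.1 and 68.4 CPM in Wt-Cre hearts (log2 fold change 0.70, SE 0.12, adjusted p = 0.00803). Txnrd3 stood at 17.0, 13.3 and 16.3 CPM in Klf9KI against 29.3, 26.0 and 24.8 CPM in Wt-Cre hearts (log2 fold change −0.79, SE 0.16, adjusted p = 0.0237). Of 39 lysosomal hydrolases 3 rose and none fell at the threshold (7.69% higher), with a median of 0.23. They were the protective protein cathepsin A, Ctsa (0.47), the peptidase Tpp1 (0.44) and the acid sphingomyelinase Smpd1 (0.46).

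The class I histocompatibility genes H2-D1 and H2-T22 and the interferon-inducible GTPase Irgm1 rose by 0.61, 0.73 and 0.72 on the log2 scale, and were also called higher at 4 and 8 weeks. The proteasome activator subunits Psme1 and Psme2 fell by 0.74 and 0.66. Syngr1, a synaptic vesicle protein, fell by 0.66, and 6 measured nerve and Schwann markers held no called gene.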
